A study of Mus musculus with 6 samples.

Results

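The genes described here form the insulin-like growth factor (IGF) axis of the cell, in 10 members chosen by name: the ligand gene Igf2, its imprinted neighbour H19, the receptor genes Igf2r, Igf1r and Insr, the receptor adaptors Irs1 and Irs2, and the RNA-binding protein genes Igf2bp1, Igf2bp2 and Igf2bp3. Every probe set that the platform's annotation assigned to exactly 1 gene, and that gene one of these, was taken. That gave 24 of 45037 probe sets and 8 of 18193 genes. H19 was read by 1 probe set that is assigned to H19 and to the microRNA gene Mir675 together, and no probe set was listed under Igf2bp2. A further probe set was assigned to Igf2r and the antisense RNA Airn together. The set was chosen with the response of these same arrays already known, above all the large difference in Igf2 and the disagreement between its probe sets, so the values below are a description and not a test of the axis.

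Igf2 is a secreted growth factor that is transcribed from the paternal allele in most embryonic tissues, whereas the long noncoding RNA H19 next to it is transcribed from the maternal allele, under a shared imprinting control region bound by CTCF. Igf2 signals through the tyrosine kinase receptors encoded by Igf1r and Insr, which phosphorylate the docking proteins Irs1 and Irs2 and so recruit the PI3 kinase pathway, while the Igf2r receptor binds Igf2 at the cell surface, carries it to lysosomes and has no kinase. The Igf2bp proteins bind Igf2 mRNA and many other transcripts and influence their stability, transport and translation.

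The RNA came from mouse embryonic stem cells of the Oct4-Gip line, a reporter line, grown with serum and LIF, the cytokine that sustains their self-renewal. The 3 Panct1 knockdown arrays were from cells given an esiRNA, a pool of short interfering RNAs made enzymatically, against the long noncoding RNA Panct1. The 3 Luciferase control arrays were from cells given an esiRNA against Luciferase, which mouse cells lack. Both groups received 800 ng of esiRNA on 60000 cells in the same lipid transfection and were harvested at 72 hours. Total RNA was hybridised to Affymetrix mouse genome expression arrays, and all signals are log2 RMA values, RMA being a method that corrects background, equalises the arrays and combines the probes of a set into 1 value.

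No probe set was named as Panct1 in the annotation, so the depletion was not measured here and the labels were not checked through it. Array medians lay between 6.07 and 6.09 and lower quartiles between 4.65 and 4.70, and a probe set under the lower quartile is called dim below. Over all probe sets, the correlation was 0.997 to 0.998 within a group and 0.991 to 0.993 between groups. Whether replicates were separate cultures is not in the labels, so SDs and p-values cover only how far these samples differ, and that spread may be technical. All 10 markers of embryonic stem cells were measured, and 0 of them were dim on every array. The same held for 14 measured markers of extraembryonic and primitive endoderm and for 9 of mesoderm. Signal above this line thus does not tell cell types apart, and the cell type is taken from the labels.

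Most of the axis that was measured was higher after Panct1 esiRNA, and no member was lower past the threshold. In the limma fit over all probe sets, 10 of 24 (41.7%) were called higher and 0 lower at an adjusted p under 0.05, where 7.82% of all probe sets were called higher and 6.76% lower. The groups did not overlap, with knockdown higher, for 14 of 24, where 14.2% of all probe sets showed this. Since this contrast also served to choose the genes, nothing is read from the excess. The median difference of the 24 probe sets was 0.29 on the log2 scale, against -0.02 over all probe sets. With 1 probe set per gene, the brightest, 6 of 8 genes were called higher (12.9% of all genes were), the exceptions being Igf2r and Igf2bp3, and the median was 0.65. Leaving out 1 array at a time gave 7 to 11 called member probe sets, and the count over all probe sets went from 6565 to 4266 without Luciferase control replicate 1.

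**Figure D1:**
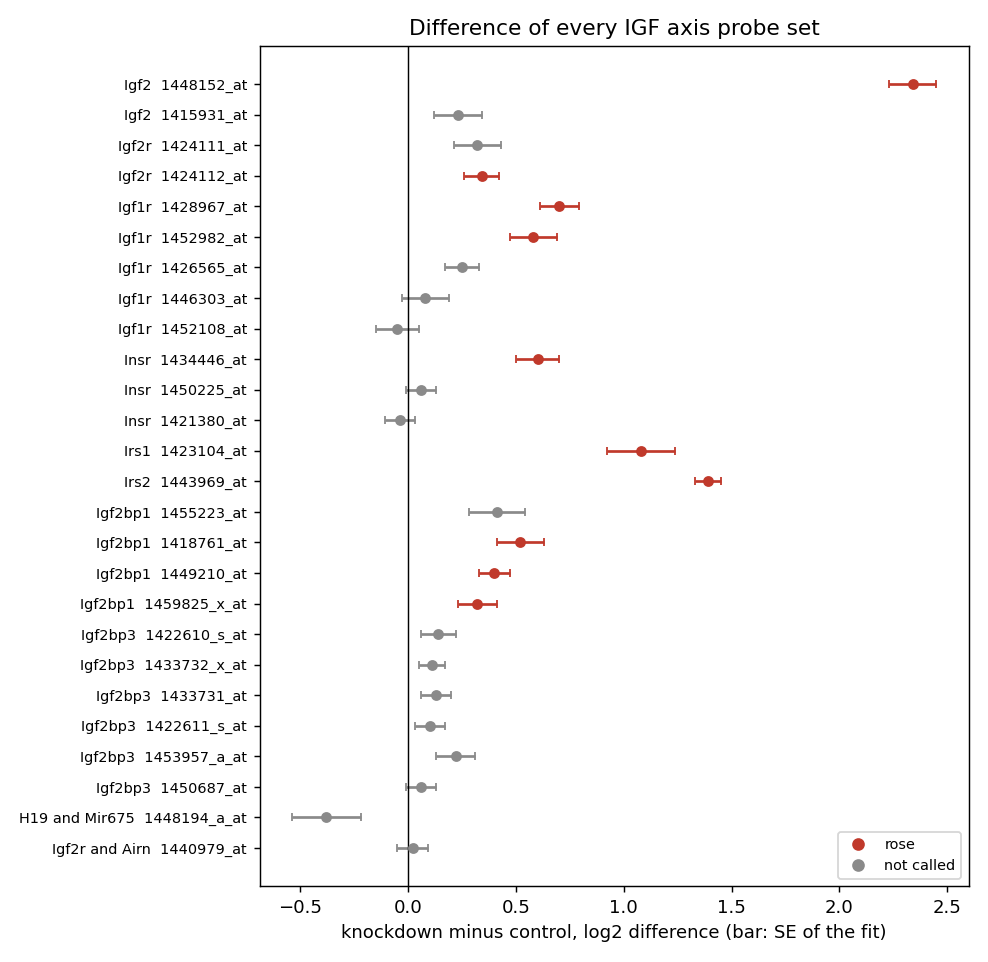
Log2 difference, Panct1 knockdown minus Luciferase control, of the 24 probe sets of the axis and of the 2 shared ones, with the SE of the limma fit as bars (3 arrays per group). Red points passed the threshold over all probe sets and grey points did not; the Igf2 probe sets differ by 2.34 and 0.23, and the probe set of H19 and Mir675 is the lowest, at -0.38.

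The ligand moved furthest. The bright Igf2 probe set, 1448152_at, read 11.38, 11.22 and 10.96 on Panct1 knockdown replicates 1, 2 and 3 and 8.98, 8.78 and 8.77 on the control arrays. Every knockdown array lay far above every control array, and the knockdown arrays were the more spread of the groups. The means were 11.19 ± 0.21 and 8.84 ± 0.12 (SD, n = 3), a log2 difference of 2.34 (SE 0.11) or 5.07-fold. It passed the threshold under each of the 13 alternatives run for it, with values of 2.25 to 2.46. Because RNA was taken from whole cultures, more cells that make Igf2 and more Igf2 RNA per cell cannot be told apart here, and this holds for every gene below.

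The other Igf2 probe set, 1415931_at, read 4.57, 4.60 and 4.47 after Panct1 esiRNA and 4.09, 4.37 and 4.50 in controls. It was dim in both groups, at 4.55 ± 0.07 and 4.32 ± 0.21 (SD, n = 3), and the groups overlapped, since knockdown replicate 3 lay below control replicate 3. Its difference of 0.23 (SE 0.11) was not called. Both probe sets are listed with the same sequence entry in the annotation, so the annotation does not separate the transcripts they read. At so low a signal, a change in the RNA it reads may not be detectable.

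**Figure D2:**
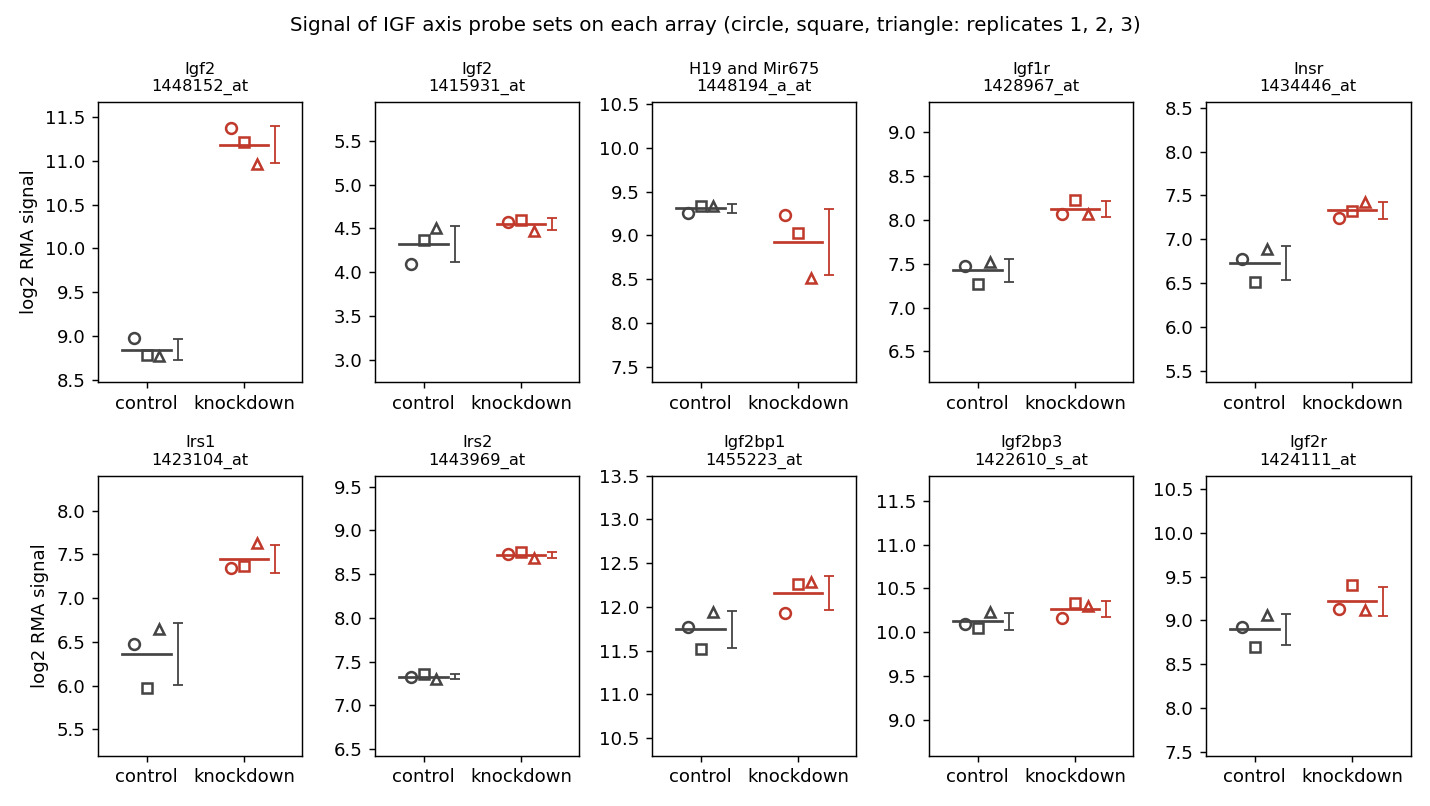
Log2 RMA signal on each of the 6 arrays for both Igf2 probe sets, the probe set of H19 and Mir675, and the brightest probe set of each other measured gene; horizontal lines are means, bars are SDs (n = 3), and every panel spans the same range of log2 units. The bright Igf2 probe set and Irs2 show groups set far apart, Igf2bp1 and Igf2bp3 show overlapping groups, and H19 with Mir675 spreads from 8.51 to 9.23 after knockdown.

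RefSeq lists 4 transcription starts for Igf2 in the promoter table, and the 250 bases before the start nearest to H19 are shown because Igf2 was the member with the largest difference. Which start the cells used was not measured. The window is chr7:142657497-142657746 on the minus strand of GRCm38.p6, written 5′ to 3′ in the direction of transcription, with capitals marking the GC box GGGCGG, searched on both strands.

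Igf2: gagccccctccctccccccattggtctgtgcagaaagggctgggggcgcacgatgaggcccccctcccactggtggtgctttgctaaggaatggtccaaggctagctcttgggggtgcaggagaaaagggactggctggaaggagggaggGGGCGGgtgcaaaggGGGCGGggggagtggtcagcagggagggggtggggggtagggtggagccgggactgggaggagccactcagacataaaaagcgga

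This window held 2 GC boxes, the next start's window held 1 and the windows of the remaining 2 starts held 0. A GC box was found in 32.7% of 32851 RefSeq promoter windows of this length. A TATA box, TATAAA on either strand, was in none of the 4 windows and in 12.4% of all.

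The signal shared by H19 and Mir675 was not called, in contrast to that of the bright Igf2 probe set. The probe set that reads H19 and Mir675, 1448194_a_at, was at 9.23, 9.03 and 8.51 after Panct1 esiRNA and at 9.25, 9.34 and 9.33 in controls. All knockdown arrays were lower than all control arrays, but knockdown replicate 1 came just under the lowest control, and replicate 3 stood furthest off. Groups that do not overlap, with knockdown lower, were found for 16.2% of all probe sets. The means were 8.92 ± 0.37 and 9.31 ± 0.05 (SD, n = 3), and the difference of -0.38 (SE 0.16) was not called. It ranged from -0.54 without knockdown replicate 1, where it was called lower, to -0.18 without knockdown replicate 3. The Mir675 hairpin lies inside H19 in the RefSeq table, and a probe set for the longer RNA cannot report the mature microRNA.

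The kinase receptors were both higher, each in part of its probe sets. For Igf1r, 2 of 5 probe sets were called higher. The brightest, 1428967_at, read 8.07, 8.23 and 8.07 after knockdown and 7.48, 7.27 and 7.52 in controls, a log2 difference of 0.70 (SE 0.09) or 1.62-fold. The second, 1452982_at, listed with the same sequence entry, differed by 0.58 (SE 0.11) or 1.49-fold. In both, the groups were apart and control replicate 2 was the lowest array.

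The 3 other Igf1r probe sets disagreed with these. Probe set 1426565_at differed by 0.25 with groups that did not overlap, from 7.41 ± 0.09 to 7.66 ± 0.10 (SD, n = 3), and was called only when the dimmer part of all probe sets was left out. Probe set 1452108_at, listed with the same sequence entry as 1426565_at, differed by -0.05, and 1446303_at by 0.08, both with overlapping groups and with mean signals of 5.68 to 5.92 in both groups. The sets with differences of 0.58 and 0.70 thus came from 1 sequence entry and those between -0.05 and 0.25 from the remaining entries.

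For Insr, the insulin receptor, whose shorter isoform also binds Igf2, 1 of 3 probe sets was called higher. Probe set 1434446_at read 7.24, 7.32 and 7.43 after knockdown and 6.78, 6.51 and 6.89 in controls. The lowest knockdown array was above the highest control array, and the means of 7.33 ± 0.10 and 6.73 ± 0.20 (SD, n = 3) differed by 0.60 (SE 0.10) or 1.52-fold. The remaining probe sets, 1450225_at and 1421380_at, which share another sequence entry, differed by 0.06 and -0.04 at means of 5.06 to 5.67. In both, the groups overlapped.

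Igf2r, the receptor that clears Igf2 and also sorts lysosomal enzymes carrying mannose 6-phosphate, was slightly higher in both of its own probe sets. Probe set 1424111_at read 9.13, 9.41 and 9.12 after knockdown and 8.93, 8.70 and 9.06 in controls, a difference of 0.32 (SE 0.11). Probe set 1424112_at read 8.96, 8.94 and 8.87 against 8.62, 8.45 and 8.68, a difference of 0.34 (SE 0.08) or 1.27-fold. The differences were of like size and neither pair of groups overlapped, but only the second was called, and its call was lost without knockdown replicate 1 or 2 or control replicate 1 or 2. The probe set shared with Airn, the antisense RNA that silences paternal Igf2r in many tissues, differed by 0.02, and the 5 probe sets of Airn alone differed by -0.09 to 0.09, with 0 called.

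The docking proteins that couple these receptors to PI3 kinase were the members with the largest differences after Igf2. Irs2, read by 1 probe set, 1443969_at, was at 8.73, 8.75 and 8.68 after knockdown and at 7.32, 7.36 and 7.30 in controls. The arrays within each group were close together, and the groups stood 1.39 (SE 0.06) apart on the log2 scale, a 2.63-fold difference. Irs1, also read by 1 probe set, 1423104_at, was at 7.34, 7.37 and 7.63 after knockdown and at 6.48, 5.97 and 6.65 in controls. Its control arrays were more spread, at 6.37 ± 0.35 (SD, n = 3) against 7.45 ± 0.16, with control replicate 2 the lowest, and the difference was 1.08 (SE 0.16) or 2.11-fold. Without control replicate 2 it was 0.88 and was still called. With a single probe set each, no second reading of either RNA was to hand.

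The promoters of Irs1 and Irs2 are shown because both genes were higher and both windows hold an E-box, CACGTG, directly before a T-rich stretch that contains TGTTTTG, a form of the insulin response element to which FoxO factors bind. The windows are the 250 bases before the RefSeq start, chr1:82291440-82291689 and chr8:11008930-11009179, both on the minus strand of GRCm38.p6, 5′ to 3′. Capitals mark the E-box, this T-rich motif and the GC box, each on either strand.

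Irs1: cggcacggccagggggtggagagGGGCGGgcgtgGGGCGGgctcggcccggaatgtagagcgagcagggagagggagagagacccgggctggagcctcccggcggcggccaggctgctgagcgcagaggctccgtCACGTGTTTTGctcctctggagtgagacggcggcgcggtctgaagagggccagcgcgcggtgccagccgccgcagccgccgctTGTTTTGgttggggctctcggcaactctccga
Irs2: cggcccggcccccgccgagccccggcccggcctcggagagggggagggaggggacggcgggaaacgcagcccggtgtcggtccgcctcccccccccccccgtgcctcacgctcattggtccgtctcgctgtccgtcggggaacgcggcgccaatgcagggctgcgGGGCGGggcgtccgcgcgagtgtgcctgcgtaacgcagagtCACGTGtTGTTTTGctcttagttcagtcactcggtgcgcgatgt

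In Irs1 the E-box begins 115 bases before the start and shares its last bases with TGTTTTG, which occurs 2 times in the window, and in Irs2 the E-box begins 44 bases before the start with 1 base between the motifs. CACGTG was present in 6.02% and TGTTTTG in 5.56% of the 32851 windows, and both in 0.295%. The arrangement of CACGTG with TTTTG beginning at most 4 bases after it, on either strand, was in 22 windows (0.067%). The motifs were picked after the sequences were read, and a match is a description of the letters, not of a bound site. Of the 10 windows found for 7 of the genes, 4 held an E-box, those of Irs1, Irs2, Igf2r and Igf2bp3, and 2 held TGTTTTG, those of Irs1 and Irs2. Of these 4 genes, Irs1 and Irs2 were called with their brightest probe set, and Igf2r only with its less bright one. Igf2 and Igf1r, whose windows held neither motif, were also called with their brightest probe set. The windows thus do not separate called from uncalled genes.

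Of the RNA-binding proteins, Igf2bp1 was higher and Igf2bp3 was not called. All 4 Igf2bp1 probe sets differed in the same direction, by 0.32 to 0.52, and 3 were called. Probe set 1418761_at read 11.94, 12.27 and 12.20 after knockdown and 11.67, 11.43 and 11.75 in controls, a difference of 0.52 (SE 0.11) or 1.43-fold. Probe set 1449210_at, from the same sequence entry, read 11.02, 11.08 and 11.18 against 10.69, 10.63 and 10.76, a difference of 0.40 (SE 0.07). In both the groups were apart, with knockdown higher.

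The brightest Igf2bp1 probe set, 1455223_at, read 11.93, 12.26 and 12.28 against 11.77, 11.52 and 11.94, and here knockdown replicate 1 fell just under control replicate 3. Its difference of 0.41 (SE 0.13) was not called over all probe sets but was called over genes, where fewer features were adjusted for. The cross-hybridising probe set 1459825_x_at differed by 0.32 and lost its call without any 1 of knockdown replicates 2 and 3 and control replicates 1 and 2. The call of 1418761_at was lost without knockdown replicate 2 or 3, and 1449210_at kept its call under the 13 alternatives run for it.

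Igf2bp3 was read by 6 probe sets, with differences of 0.06 to 0.22, all above 0 and 0 called. Its brightest, 1422610_s_at, was at 10.16, 10.33 and 10.30 after knockdown and at 10.09, 10.05 and 10.23 in controls. The groups overlapped there and in 3 more of the 6, while 1433732_x_at and 1422611_s_at, which differed by 0.11 and 0.10, had groups that did not overlap. The largest difference was that of 1453957_a_at, from 7.82 ± 0.16 to 8.03 ± 0.10 (SD, n = 3). Whether the response of Igf2bp3 differs from that of Igf2bp1 was not tested. Igf2bp2 could not be described.

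Single arrays took part in these values unevenly. Luciferase control replicate 2 was the lowest of the 6 arrays in 15 of the 24 probe sets of the axis, whereas it was the lowest in 15.2% of all probe sets. Panct1 knockdown replicate 2 was the highest in 11 of the 24, and in 12.4% of all probe sets. Most of the 24 were higher after knockdown, so their lowest array was mostly a control and their highest mostly a knockdown array. Without control replicate 2, the differences were 0.47 or more for every called probe set of Igf2, Igf1r, Irs1, Irs2 and Insr, all still called, and 8 member probe sets in all were called.

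**Figure D3:**
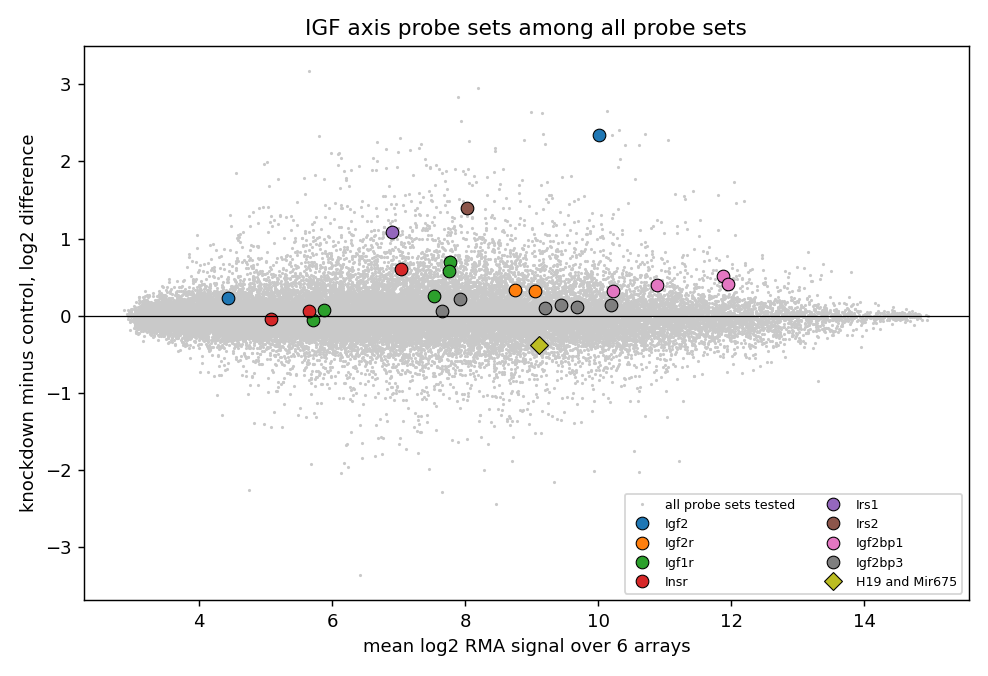
Log2 difference, knockdown minus control, against the mean log2 RMA signal over 6 arrays for all 45037 probe sets (grey) and for those of the axis (coloured); the diamond is the probe set of H19 and Mir675. Igf2 at 2.34, Irs2 at 1.39 and Irs1 at 1.08 stand above the bulk, and the probe sets of Igf2bp3 lie within it.

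Around the ligand, the IGF binding proteins did not move as 1 group. The list here held 20 measured genes: other ligands of the family, binding proteins, their proteases and some related genes outside these classes. In the limma fit over genes, 5 of the 20 rose and 0 fell, where 12.9% of all genes rose and 11.3% fell. The list's median of 0.05 was near the -0.02 of all genes. Igfbp3, which carries IGFs in the circulation and at the cell surface, was at 11.23, 11.28 and 11.30 after knockdown and at 9.47, 9.03 and 9.53 in controls. The groups were wide apart, and it rose 3.80-fold (log2 difference 1.93, SE 0.12, limma adjusted p = 1.58e-05), with both of its probe sets called. Igfbp4, which inhibits IGF action, rose 1.61-fold (limma adjusted p = 0.000201), in 4 of its 6 probe sets. Htra1, a secreted protease that can cleave binding proteins, rose 2.16-fold (limma adjusted p = 0.00121). Rln1, a relaxin, rose by 0.31 (limma adjusted p = 0.0272) and lost its call without knockdown replicate 1 or any 1 control array.

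The other binding proteins gave Igfbp2 at 0.13, Igfbp5 at -0.06, Igfbp6 at -0.04 and Igfbp1 at -0.18, none of them called. Igfbp7 differed by -0.07 in its brightest probe set and by 0.76 in another, 1 of 3 called. Igf1, the sister ligand, differed by 0.14 and was called only without control replicate 2. The insulin gene Ins2, beside Igf2 on the chromosome, differed by -0.03. Without control replicate 3, 3 genes of this list were called higher in place of 5, and without control replicate 1 a single gene was called lower.

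Downstream of the receptors, single genes stood out from lists whose counts were near those of all genes. Of 26 further adaptors and phosphatases 4 rose (15.4%) and 2 fell (7.69%), near the 12.9% and 11.3% of all genes, so the counts are no result about the list. The gene with the smallest p was Grb10, an adaptor that inhibits insulin and IGF receptors and is itself imprinted, which rose 2.84-fold in the brightest of 3 called probe sets (limma adjusted p = 3.08e-05). Its relative Grb14 rose by 0.56 (adjusted p = 0.000581), and Crk rose by 0.25 (adjusted p = 0.0166, lost without knockdown replicate 2 or control replicate 1). Gab1, a docking protein like the Irs proteins, fell by 0.65 (limma adjusted p = 0.000176), with all 3 probe sets called. Without control replicate 1 the count of rises in this list was 2, and without any array but knockdown replicate 1 the count of falls was 1.

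Of 32 genes of the PI3K, AKT and mTOR chain 6 rose (18.8%) and 5 fell (15.6%), against 12.9% and 11.3% of all genes, with a median of 0.05, and nothing is read from these counts about the chain. Inpp5d, the lipid phosphatase SHIP1, fell by 0.82 (limma adjusted p = 0.000124), in both probe sets. Gsk3b, a kinase that AKT inhibits, rose 1.61-fold (adjusted p = 0.000270), in 4 of 6 probe sets. Inppl1, the phosphatase SHIP2, and Pik3r1, a regulatory subunit of PI3 kinase, both rose by 0.41 (limma adjusted p = 0.00153 and 0.00475), but the 3 other Pik3r1 probe sets were not called. The number of falls was 2 when knockdown replicate 2 or 3 or control replicate 1 or 3 was left out.

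Among genes near Igf2 and H19 on the chromosome, differences were small. Of 22 measured, 2 rose (9.09%) and 1 fell (4.55%), against 12.9% and 11.3% of all genes, and the median was 0.04. The lipid transfer gene Osbpl5 rose by 0.45 (limma adjusted p = 0.00472), the mitochondrial ribosomal gene Mrpl23 by 0.24 (adjusted p = 0.0209), and Nap1l4, a histone chaperone gene, fell by 0.19 (adjusted p = 0.0488, lost without knockdown replicate 1, 2 or 3 or control replicate 1, 2 or 3). Mrpl23 lost its call without knockdown replicate 2 or 3 or control replicate 1 or 3. Dhcr7, of sterol synthesis, differed by 0.19 and was not called. The antisense RNA Igf2os, which overlaps Igf2, went from 6.21 to 6.45 and was not called (limma adjusted p = 0.0715).

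Near Igf2r, 0 of 10 measured genes rose and 3 fell (30.0%, against 11.3% of all genes): Pnldc1, an exonuclease gene of small RNA trimming, fell by 0.71 (limma adjusted p = 0.000119), Sod2, the mitochondrial superoxide dismutase, fell by 0.55 (adjusted p = 0.000328) and Mrpl18 fell by 0.22 (adjusted p = 0.0382, lost when any array but knockdown replicate 1 was left out). Map3k4 differed by 0.16 and was not called.

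Of 19 genes that regulate imprinting at such loci, 9 fell (47.4%) and 3 rose (15.8%), where 11.3% of all genes fell and 12.9% rose, and the median was -0.11. The difference between these shares was not tested, and with a 1.5-fold minimum 4 fell and 2 rose. Zfp57, the zinc finger protein that keeps imprints methylated, fell by 0.90 (limma adjusted p = 9.63e-05), and Dnmt3l, the cofactor of de novo methylation, fell by 0.60 (adjusted p = 0.000241). Dppa3, a maternal factor that shields imprints, rose 2.20-fold (adjusted p = 1.02e-05), and Plagl1, an imprinted zinc finger gene that can activate Igf2 and H19, rose 2.05-fold (adjusted p = 5.70e-05). Plagl1 was at 0.04 and not called when probe sets prone to cross-hybridise were left out. Leaving out 1 array at a time gave 6 to 7 falls and 2 to 3 rises.

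Of 28 measured genes of the imprinted network that is co-expressed with Igf2 and H19 in growing tissues, 11 rose (39.3%) and 0 fell, where 12.9% of all genes rose and 11.3% fell, with a median of 0.09. Besides Grb10 and Plagl1, Nnat, a membrane protein gene of the nervous system, rose 1.94-fold (limma adjusted p = 4.57e-05) and Peg12 rose by 0.92 (adjusted p = 0.000163) from a dim 3.70 to 4.62. Without 1 array at a time, 11 to 12 rose, and without knockdown replicate 2 or 3 a single gene fell. These lists were chosen with the rise of Igf2, Grb10, Plagl1 and Nnat known, so their counts are not independent evidence of a direction.

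Among 21 partners and target RNAs of the Igf2bp proteins 3 rose and 3 fell (14.3% each), near the shares of all genes. Hmga2, a chromatin protein whose mRNA these proteins protect, rose 1.53-fold (limma adjusted p = 0.000260) and 3 of its 4 probe sets were called. Mapk4 rose 2.11-fold (adjusted p = 0.000667) and Cd44, the hyaluronan receptor, rose by 0.56 (adjusted p = 0.00948), whereas Myc, whose mRNA Igf2bp1 stabilises, fell by 0.57 (adjusted p = 0.00186). The list of the mannose 6-phosphate route, in which Igf2r works, also held secreted and surface proteins that are not lysosomal enzymes or sorting factors. Of its 22 measured genes 8 rose (36.4%) and 2 fell (9.09%), against 12.9% and 11.3% of all genes, with a median of 0.01. The rises included some of those other proteins, and the difference between the shares was not tested. The protease gene Ctsl rose by 0.58 (limma adjusted p = 0.000302), M6pr, which encodes the smaller mannose 6-phosphate receptor, by 0.53 (adjusted p = 0.000539) and the hexosaminidase gene Hexa by 0.54 (adjusted p = 0.000666), while Ap1g1, a subunit of the clathrin adaptor, fell by 0.40 (adjusted p = 0.00160). The count of rises was 5 without knockdown replicate 2 or control replicate 1.

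**Figure D4:**
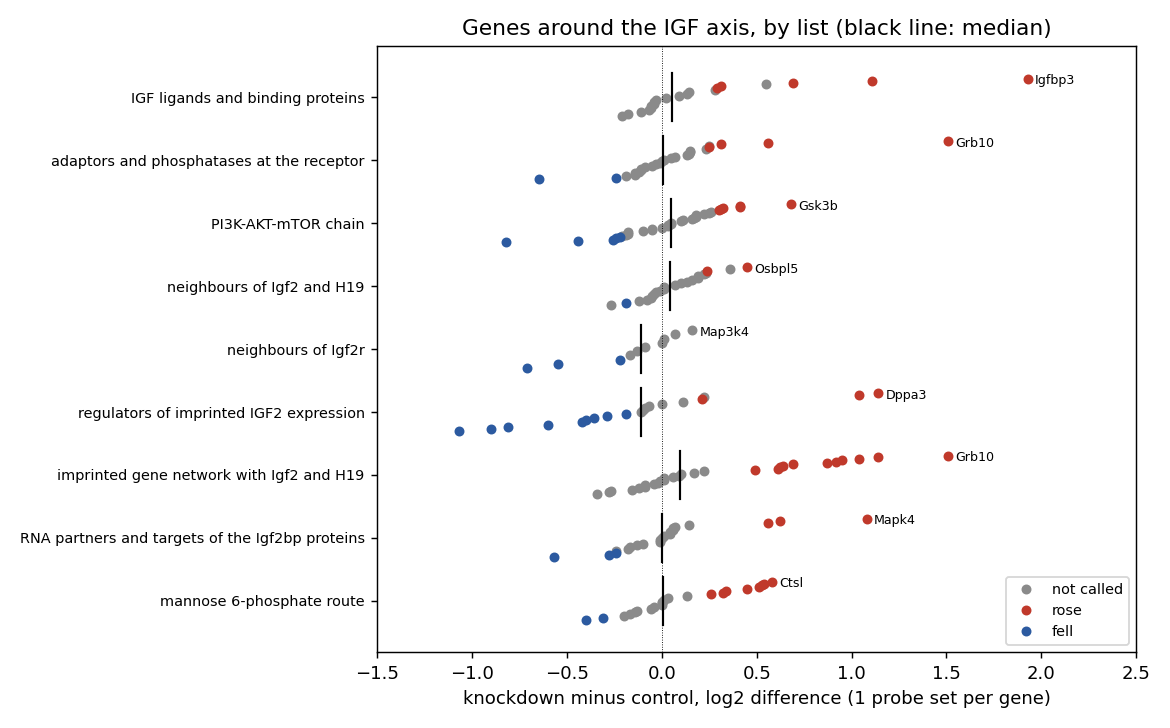
Log2 difference, knockdown minus control, of each measured gene of the 9 lists around the axis, with 1 probe set per gene; red genes rose, blue genes fell and grey genes were not called over all genes, and the black line is the list's median. Medians lie between -0.11 and 0.09, and the highest gene of each list is named, with Igfbp3 at 1.93 and Grb10 at 1.51.

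Among the marker lists, trophectoderm stood out, with a median log2 difference of 0.89 against -0.02 over all genes. Medians were -0.22 for embryonic stem cells, -0.02 for extraembryonic and primitive endoderm, -0.08 for mesoderm and 0.00 for fibroblast and mesenchyme. Over all genes 12.9% rose and 11.3% fell, and nothing is read from the counts of the endoderm, mesoderm and fibroblast lists. Of 12 trophectoderm markers 10 rose and 0 fell, and their summed linear signal, in units of 1000, was 3.67 to 3.93 on the control arrays and 12.9 to 14.6 on the knockdown arrays. Elf5 was the 1 marker of the list that was dim on every array. Of 10 embryonic stem cell markers 6 fell, with sums of 87.8 to 90.4 in controls and 79.3 to 81.2 after knockdown, and 3 fell without knockdown replicate 2 or control replicate 1 or 3. Of 14 markers of extraembryonic and primitive endoderm, a tissue known for Igf2 and H19, 3 rose and 3 fell (1 fell without knockdown replicate 2 or control replicate 1), with sums of 5.43 to 5.44 and 5.89 to 6.48. Sparc, its brightest marker, carried that difference: without it the sums were 2.09 to 2.30 and 1.99 to 2.21, which overlap. Mesoderm markers rose in 2 of 9, with sums of 0.876 to 0.930 and 0.975 to 0.988. Eomes, 1 of these 2, and Hand1, which was not called, are also on the trophectoderm list. Fibroblast and mesenchyme markers rose in 3 and fell in 1 of 12, with sums of 2.95 to 3.23 and 2.41 to 2.65. Here Vim, the brightest, set the direction: without it the sums were 0.725 to 0.773 in controls and 0.936 to 0.988 after knockdown. Without the brightest marker, the sums of the other lists kept their direction, with trophectoderm at 2.78 to 2.85 and 8.57 to 9.62, embryonic stem cell markers at 62.4 to 65.6 and 53.9 to 56.1, and mesoderm at 0.697 to 0.736 and 0.766 to 0.785. These sums were added after the data were seen. The part of any of these in the values of Igf2, Irs1, Irs2 or the receptors was not tested.

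The genes whose 6 values lay nearest to those of the bright Igf2 probe set, each value taken as its difference from the control mean, were Dsp, the desmosome protein, at a Euclidean distance of 0.34, then 3830417A13Rik at 0.47, the keratin genes Krt19 at 0.48 and Krt8 at 0.49, and Fndc3c1 at 0.54. Their log2 differences were 2.34, 2.16, 2.40, 2.28 and 2.23. By this measure only genes with a group difference of like size can lie near, and joint regulation with Igf2 was not tested. Nearest to the probe set of H19 and Mir675 were Ccnb1ip1 and 5330411J11Rik, both at 0.17, Sgms2 at 0.18, Tob1 at 0.20 and Xkr8 at 0.21, with log2 differences of -0.43, -0.37, -0.47, -0.42 and -0.40. Of these 5, Tob1 and Xkr8 were called lower, and both lost the call when any array but knockdown replicate 1 was left out. The 2 sets of neighbours were taken over 6 arrays and 18193 genes.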

How the data were processed

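The deposited table holds log2 signals made by the authors, 1 per probe set and array, with GCOS 1.4 and RMA per the submitters' processing notes; which arrays were normalised together is not given in the sources used here. RMA can compress differences of dim and very bright probe sets. Precision is limited by having 3 arrays per group. Groups came from sample titles. Of 45101 probe sets, 64 Affymetrix controls were left out, and 34945 had 1 gene symbol, 932 several and 9160 none listed. Of the symbols, 34741 were matched by gene ID to RefSeq (GRCm38.p6), and the RefSeq symbol was used for them. Differences were fitted with limma 3.58.1 (R 4.3.3; lmFit and eBayes, group as the only term), two-sided, with Benjamini-Hochberg adjustment over 45037 probe sets or 18193 genes (brightest probe set each) and a threshold of 0.05. The script was tested on simulated data. Promoter sequences are RefSeq's, present for 7 of the 10 genes.

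The members, the lists of 209 surrounding genes and the markers were chosen with earlier results of these data known. Of each list the 4 genes with the smallest p are named, with Igfbp1 to Igfbp7, Igf1, Ins1 and Ins2 where measured and the 5 nearest patterns of Igf2 and of H19. Airn, Igf2os and Elf5 are named outside this rule, after their values were seen. Alternatives were a replicate block, weights per array, centring on medians, a further quantile step, robust variances with a trend, dropping dim or cross-hybridising probe sets, leaving out each array in turn, a 1.5-fold minimum and gene values averaged over probe sets.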

Additional observations from a re-analysis of the deposited data

How the results depend on the processing

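Under the 13 alternatives run for each, the bright Igf2 probe set, Irs1, Irs2, the called probe sets of Igf1r and Insr and 1449210_at of Igf2bp1 stayed past the limma threshold with the same sign. Over all 14 alternatives, 1032 single values were recomputed for 77 probe sets and genes, and 55 lost and 26 gained a call. Of the values called in the main fit or in the alternative, 0 reversed. Values called in neither could change sign, as 1452108_at of Igf1r did, ranging from -0.15 to 0.02. A 1.5-fold minimum left 2086 probe sets, 5 of the axis, 1227 genes and 24 of the surrounding genes, in place of 6565, 10, 4404 and 65, because small differences drop out by construction. It left 0 of the 8 rises of the mannose 6-phosphate list, 1 of the 6 of the PI3K chain and 10 of the 11 of the imprinted network. Leaving out 1 array at a time gave 4266 to 5574 probe sets, 7 to 11 of the axis, 3133 to 3986 genes and 48 to 64 surrounding genes. Same-numbered arrays deviated from their group means with correlations of -0.16, -0.30 and -0.15, and differently numbered ones with -0.13 to 0.31. No same-numbered pair was thus correlated above 0. Deviations within a group of 3 arrays sum to 0 by construction, so the correlations depend on each other. Whether arrays were paired was not tested. With the replicate block, 4692 probe sets, 8 of the axis, 3496 genes and 48 surrounding genes were called, and 1424112_at of Igf2r and 1459825_x_at of Igf2bp1 lost their calls. The latter also lost it with each array centred on its median. Probe sets near background, such as 1415931_at of Igf2, limit what can be said of the RNA they read.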
